A study of Danio rerio with 45 samples.

Results

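The genes described here encode the receiving side of Nodal signalling: the co-receptor gene tdgf1 (ENSDARG00000035095), the type I receptor gene ACVR1B (ENSDARG00000018968), the type II receptor gene ACVR2A (ENSDARG00000011188), the signal transducer gene SMAD2 (ENSDARG00000006389) and the DNA-binding Smad partner gene foxh1 (ENSDARG00000055630). They were chosen by gene ID for their place in the pathway, with earlier results of these data known. They are 5 of the 31465 genes in a bulk RNA-seq count table, and all 5 were among the 21075 genes tested. Symbols are those of the name table, in which ACVR1B also names a second gene, ENSDARG00000052142.

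Nodal ligands are secreted signals of the TGF-beta family that induce mesoderm and endoderm in the early embryo. A ligand binds activin receptors of type I and type II together with an EGF-CFC co-receptor, which in zebrafish is Tdgf1, also known as One-eyed pinhead. The type I receptor phosphorylates Smad2 or Smad3, which enter the nucleus with Smad4 and act on target genes with partners such as Foxh1. Zebrafish eggs are loaded with maternal tdgf1 and foxh1 RNA, so the pathway can respond to a ligand before the embryo has made these RNAs itself.

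The samples were animal-pole explants cut from blastulae of the AB strain and cultured to 4, 5 or 6 hours post fertilization (hpf). The injected explants carried 2, 6 or 10 pg of mRNA of ndr2, a Nodal ligand gene, delivered to a single cell of the early embryo, and control explants came from uninjected embryos. A further condition carried 10 pg of ndr2 mRNA and, from 20 min after injection until harvest, cycloheximide (CHX), a blocker of protein synthesis, at the 50 µg/µl given in the labels. Each of the 5 conditions was taken at each age, which gives 15 groups. All CHX explants also carried ndr2 mRNA. Explants with CHX and no ndr2 are not analysed here, so an effect of CHX alone and an effect of CHX on the Nodal response cannot be told apart.

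The fits used 43 libraries, 3 per group except for n = 2 in the 10 pg group and in the 10 pg with CHX group at 4 hpf, where replicate 3 was the same column of counts in both groups and was left out. Library totals ran from 12137856 to 28551066 counts. The lowest count of any of the 5 genes in a library was 247 (ACVR2A) and the highest 14914 (foxh1). Levels are counts scaled to library size (CPM) after TMM normalization, with SD over libraries. Changes are log2 values with standard errors from edgeR's quasi-likelihood test, with Benjamini-Hochberg adjustment of p across the 21075 genes in each comparison. The words rose and fell stand for an adjusted p below 0.05. The labels do not say whether replicates came from separate clutches, so p-values measure the spread between these libraries, which may be technical. In whole explants, fewer cells with a transcript and less transcript per cell cannot be told apart.

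The 2 pg libraries of 4 hpf stood apart in developmental progress, and the 6 pg libraries did so in part. Progress was read from 5751 genes, members left out, that fell by more than 1 log2 unit in controls between 4 and 6 hpf. Their median log2 level relative to control at 4 hpf was -0.18 to 0.16 in the controls of 4 hpf. It was -0.85 to -0.39 in the 2 pg libraries, -0.51 to -0.18 in the 6 pg libraries and -0.31 to -0.17 in the 10 pg libraries. The 2 pg range did not overlap the controls, while 6 pg replicate 1 lay within the controls and the 6 pg and 10 pg ranges overlapped. The CHX libraries lagged. The same measure was -0.59 to -0.04 in CHX explants at 5 hpf and -0.69 to -0.48 at 6 hpf, against -1.89 to -1.34 in controls at 5 hpf and -2.12 to -2.07 at 6 hpf. The ndr2 counts followed the labels at 4 hpf: they averaged 0.49 ± 0.18 CPM in controls, 6.90 ± 0.12 CPM with 2 pg, 41.6 ± 8.5 CPM with 6 pg and 128 ± 20 CPM with 10 pg (n = 3, 3, 3 and 2). At 6 hpf they averaged 0.45 ± 0.14 CPM in controls, 6.5 ± 2.3 CPM with 2 pg, 22.0 ± 8.2 CPM with 6 pg and 21.5 ± 6.0 CPM with 10 pg (n = 3 each). The ndr2 counts of 5 hpf lay at 0.46 to 1.03 CPM in controls and 1.68 to 3.37 CPM with 2 pg. They lay at 3.95 to 17.2 CPM with 6 pg and 11.6 to 20.2 CPM with 10 pg. The 6 pg and 10 pg libraries overlapped in ndr2 at both 5 and 6 hpf.

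Only ACVR1B rose with ndr2 in a graded way that passed the test, at 5 and 6 hpf. At 6 hpf its mean did not climb from 6 pg (447 CPM) to 10 pg (407 CPM). The dose slope, the log2 change per pg over control, 2, 6 and 10 pg, was called for ACVR1B alone at 5 hpf (background 0.308% of all genes tested) and at 6 hpf (0.565%), and for 0 of the 5 genes at 4 hpf (0.299%). ACVR1B was also the gene called with 10 pg at 5 hpf (0.223% of all genes) and 6 hpf (0.474%), with 6 pg at 5 hpf (0.176%) and 6 hpf (0.636%), and with 2 pg at 6 hpf (1.24%). No member passed with 10 pg at 4 hpf (0.147%) or with 2 pg at 5 hpf (0.00474%). By edgeR's test without adjustment, tdgf1 and ACVR1B were below 0.05 in the first, ACVR1B in the second and tdgf1 for the slope at 4 hpf, and DESeq2 called 0 members in each. At 4 hpf, tdgf1 rose and ACVR2A fell both with 2 pg (29.0% of all genes called) and with 6 pg (15.7%), where the shares over all genes were also high. The dose comparisons of an age share their control libraries.

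**Figure D1:**
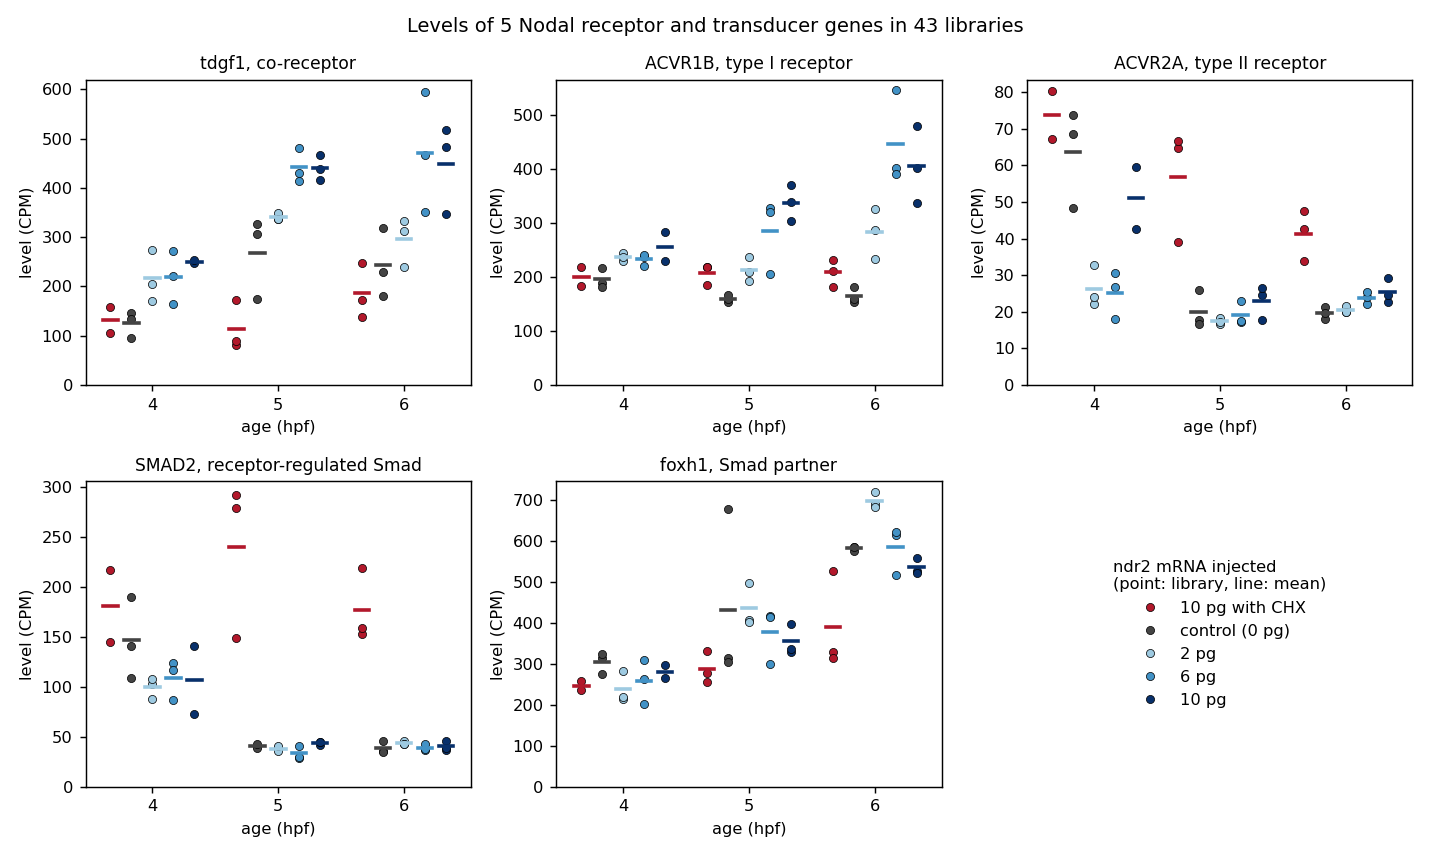
CPM of each of the 5 genes in every library (points) with the group mean (line), by age in hpf and condition. The ACVR1B mean climbs with dose at 5 hpf and, at 6 hpf, up to 6 pg, with the 10 pg libraries overlapping those of 6 pg. SMAD2 stays between 145 and 293 CPM in the CHX explants while no other library of 5 or 6 hpf exceeds 46.3 CPM.

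The co-receptor gene tdgf1 had a higher mean in injected than in control explants at every age, but most of these differences missed the threshold. At 4 hpf its levels were 146, 94.6 and 135 CPM in controls, 275, 204 and 169.6 CPM with 2 pg, 164, 221 and 272 CPM with 6 pg, and 247 and 254 CPM with 10 pg. Every injected library lay above every control. The changes against control were 0.79 ± 0.27 with 2 pg (adjusted p = 0.0265), 0.81 ± 0.27 with 6 pg (adjusted p = 0.0386) and 1.00 ± 0.30 with 10 pg (adjusted p = 0.255), so the largest of the values was the one that did not pass in its own comparison. The calls for 2 pg and 6 pg rested on single libraries. Without 2 pg replicate 1 the 2 pg change was 0.59 (adjusted p = 0.168), and without control replicate 2 it was 0.62 (adjusted p = 0.141). The 6 pg change lost its call without any one of the control libraries or without 6 pg replicate 2 or 3, at 0.62 to 0.93 (adjusted p = 0.0555 to 0.182).

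At 5 hpf tdgf1 had 326, 174 and 306 CPM in controls, 337, 349 and 337 CPM with 2 pg, 482, 413 and 430.2 CPM with 6 pg, and 466, 439 and 416 CPM with 10 pg. The libraries of all doses lay above the controls, among which replicate 2 was low. At 6 hpf the levels were 319, 229 and 180.2 CPM in controls, 313, 333 and 240.4 CPM with 2 pg, 467, 594 and 351 CPM with 6 pg, and 517, 483 and 346 CPM with 10 pg. Here the 6 pg and 10 pg libraries did not overlap the controls, while the 2 pg libraries did. The change with 10 pg was 0.71 ± 0.27 at 5 hpf and 0.89 ± 0.27 at 6 hpf (95% intervals 0.16 to 1.26 and 0.34 to 1.44), and the adjusted p was 1 and 0.35. The dose slope at 6 hpf was 0.09 ± 0.02 per pg (adjusted p = 0.084). Of the 12 fits that left out a single library, 1 passed, the fit without control replicate 1 (0.11, adjusted p = 0.0374). In the others the adjusted p reached 0.545.

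The type I receptor gene ACVR1B is the kinase that acts on Smad2 in this pathway, and it was the member with the clearest response to the ligand. At 4 hpf its levels were 218, 189 and 182 CPM in controls, 245, 230.0 and 238 CPM with 2 pg, 238, 221 and 242 CPM with 6 pg, and 284 and 229.6 CPM with 10 pg. The injected libraries all lay above the controls by a small margin, and the changes of 0.25 to 0.39 did not pass. At 5 hpf the levels were 155, 159.7 and 166 CPM in controls, 237, 210.4 and 193 CPM with 2 pg, 329, 205 and 321 CPM with 6 pg, and 339, 372 and 304 CPM with 10 pg. No injected library overlapped the controls, and 6 pg replicate 2 lay among the 2 pg libraries. At 6 hpf the levels were 155, 159 and 182 CPM in controls, 288, 327 and 234 CPM with 2 pg, 403, 547 and 391 CPM with 6 pg, and 402, 480.1 and 339 CPM with 10 pg. The 6 pg and 10 pg libraries overlapped each other and lay above all 2 pg libraries, which in turn lay above all controls.

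Against control, ACVR1B rose by 1.08 ± 0.16 with 10 pg at 5 hpf (a 2.11-fold level, adjusted p = 0.000156) and by 1.30 ± 0.16 at 6 hpf (2.46-fold, adjusted p = 4.06e-06). With 6 pg it rose by 0.83 ± 0.16 at 5 hpf (adjusted p = 0.00913) and by 1.44 ± 0.16 at 6 hpf (adjusted p = 7.92e-07). With 2 pg the change was 0.41 ± 0.16 at 5 hpf (adjusted p = 0.947) and 0.78 ± 0.16 at 6 hpf (adjusted p = 0.012). The slope was 0.10 ± 0.01 per pg at 5 hpf (adjusted p = 3.3e-05) and 0.12 ± 0.01 per pg at 6 hpf (adjusted p = 1.1e-06), against 0.03 ± 0.02 at 4 hpf (adjusted p = 0.523). The 10 pg calls and both slopes held when any single library was left out. The 2 pg call at 6 hpf was lost without control replicate 1 or 2 or without 2 pg replicate 1 or 2 (0.66 to 0.76, adjusted p = 0.0597 to 0.0926). The 6 pg call at 5 hpf was lost without control replicate 1 or 2 or without 6 pg replicate 1 or 3 (0.72 to 0.83, adjusted p = 0.0678 to 0.141), and in a fit of the 5 hpf libraries alone (0.85, adjusted p = 0.158).

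The 10 pg effect on ACVR1B was larger at 6 hpf than at 4 hpf by 0.91 ± 0.24, with an unadjusted p of 0.000659 and an adjusted p of 0.397, so the change of the effect with age did not pass over all genes. In that comparison 0 of the 5 genes and 0.0474% of all genes were called, with 1120 genes at an unadjusted p below 0.05, ACVR1B and ACVR2A among them. DESeq2 called 0 members.

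**Figure D2:**
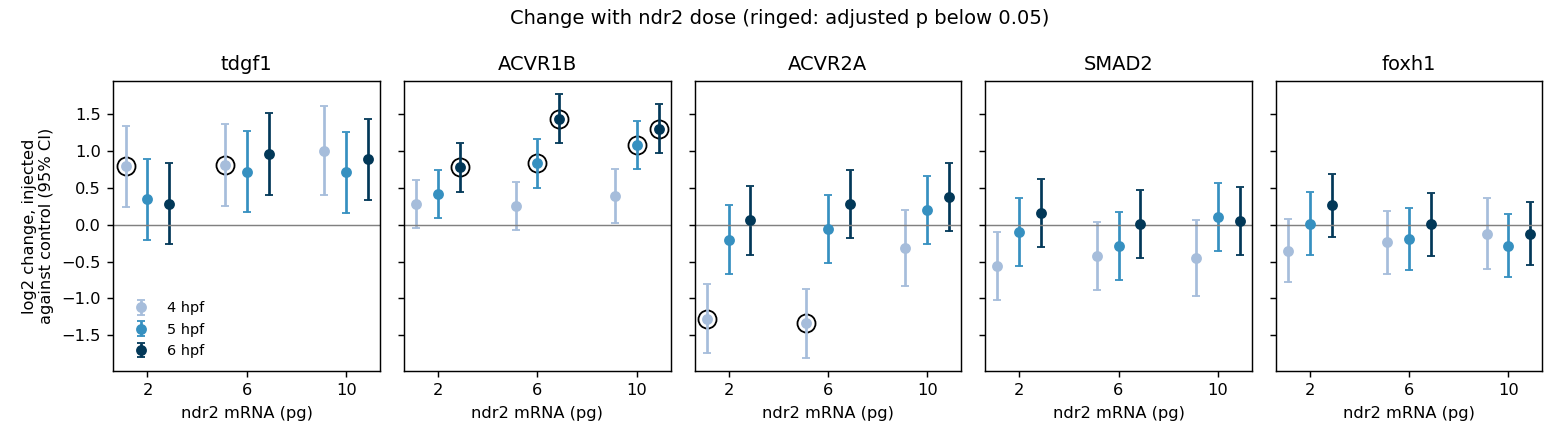
Log2 change of each gene in injected against control explants by ndr2 dose in pg, at 4, 5 and 6 hpf (points with 95% intervals, ringed where adjusted p was below 0.05). The ACVR1B values at 5 and 6 hpf run from 0.41 to 1.44, while SMAD2 and foxh1 stay between -0.56 and 0.26.

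The type II receptor gene ACVR2A encodes the partner that activates the type I receptor, and its dose slope did not pass at any age. At 4 hpf it had 68.5, 73.8 and 48.4 CPM in controls, 22.1, 32.7 and 24.2 CPM with 2 pg, 30.7, 18.1 and 26.7 CPM with 6 pg, and 59.4 and 42.5 CPM with 10 pg. The 2 pg and 6 pg libraries were all below the controls and the 10 pg libraries overlapped them. ACVR2A fell by 1.27 ± 0.23 with 2 pg (adjusted p = 9.08e-05) and by 1.34 ± 0.23 with 6 pg (adjusted p = 0.000191), while with 10 pg the change was -0.32 ± 0.25 (adjusted p = 0.793). The gene also fell with age in controls, by 1.66 ± 0.23 between 4 and 5 hpf. The 2 pg libraries and 6 pg replicates 2 and 3 of 4 hpf lay furthest along the age change of controls. With 6 pg, replicate 1 (-0.18) lay within the range of the controls of 4 hpf, and its 30.7 CPM of ACVR2A lay below every control. Replicate 2 (-0.46) had 18.1 CPM and replicate 3 (-0.51) had 26.7 CPM. With 10 pg, replicate 1 (-0.17) had 59.4 CPM and replicate 2 (-0.31) had 42.5 CPM. Of 8 genes of the enveloping layer, the outer epithelium of the blastula, 6 rose with 2 pg (29.0% of all genes called) and 3 with 6 pg (15.7%) at 4 hpf. Their sums were 73.8 to 214 CPM in controls, 503 to 1417 CPM with 2 pg, 150 to 557 CPM with 6 pg and 460.4 to 467 CPM with 10 pg. The part of developmental progress and cell makeup in the changes of ACVR2A and tdgf1 was not tested. At 5 and 6 hpf every injected and control library without CHX held 16.6 to 29.4 CPM, and no dose was called. The ACVR2A means at 6 hpf were 19.7 CPM in controls, 20.5 CPM with 2 pg, 23.9 CPM with 6 pg and 25.5 CPM with 10 pg. All 6 pg and 10 pg libraries of 6 hpf lay above all controls, while the 2 pg libraries overlapped the controls.

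SMAD2 and foxh1 did not pass with any dose at any age in the TMM fit. With library totals both passed for 2 pg at 4 hpf (SMAD2 -0.73, adjusted p = 0.0155, and foxh1 -0.52, adjusted p = 0.0299). With 10 pg at 6 hpf the change was 0.06 ± 0.23 for SMAD2 (95% interval -0.41 to 0.52) and -0.12 ± 0.21 for foxh1 (95% interval -0.55 to 0.31). SMAD2 then had 36.5, 45.9 and 38.9 CPM with 10 pg, against 35.8, 46.3 and 34.7 CPM in controls, and the groups overlapped. Its lowest value against control was -0.56 ± 0.23 with 2 pg at 4 hpf (adjusted p = 0.0601), which also passed with a replicate block within each age (-0.55, adjusted p = 0.0429) and without control replicate 3 (-0.73, adjusted p = 0.0219). For foxh1 at 6 hpf the levels were 584, 575 and 585 CPM in controls, 689, 682 and 718 CPM with 2 pg, 615, 517 and 622 CPM with 6 pg, and 527, 520.4 and 558 CPM with 10 pg. The 2 pg libraries lay above and the 10 pg libraries below the tightly grouped controls, and neither difference passed (0.26 ± 0.21 and -0.12 ± 0.21).

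The members changed in opposite directions as control explants aged, with tdgf1 and foxh1 higher and ACVR2A and SMAD2 lower at the later ages, except that foxh1 turned slightly negative between 4 and 5 hpf with library totals as the scale. In controls, 4 of the 5 genes were called between 4 and 5 hpf (54.1% of all genes tested), 4 between 4 and 6 hpf (63.3%) and 0 between 5 and 6 hpf (8.13%), so most genes tested changed over the intervals in which the members did. Between 5 and 6 hpf, foxh1 was below 0.05 without adjustment, and DESeq2 called 0 members. At 10 pg all 5 passed between 4 and 6 hpf (57.1%). The tdgf1 call at 10 pg (0.84 ± 0.31, adjusted p = 0.0202) was lost without 10 pg replicate 1 or 2 of 4 hpf or replicate 1 of 6 hpf (0.73 to 0.85, adjusted p = 0.0642 to 0.099). With CHX, ACVR2A and foxh1 passed between 4 and 6 hpf (27.9%). The foxh1 rise with CHX (0.66 ± 0.24, adjusted p = 0.0363) was lost without CHX replicate 1 or 2 of 4 hpf or replicate 1 of 6 hpf (0.38 to 0.72, adjusted p = 0.138 to 0.268).

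In controls SMAD2 had 141, 189.8 and 109 CPM at 4 hpf, 41.0, 38.5 and 42.7 CPM at 5 hpf, and 35.8, 46.3 and 34.7 CPM at 6 hpf. All libraries of 4 hpf lay above all later ones, and the later ages overlapped. It fell by 1.85 ± 0.23 between 4 and 5 hpf (adjusted p = 6.33e-08) and by 1.91 ± 0.23 between 4 and 6 hpf (adjusted p = 1.61e-08). ACVR2A had the same course, with 48.4 to 73.8 CPM at 4 hpf, 16.6 to 25.9 CPM at 5 hpf and 18.1 to 21.4 CPM at 6 hpf, and fell by 1.69 ± 0.23 between 4 and 6 hpf (adjusted p = 1.33e-07). The co-receptor gene tdgf1 rose by 1.10 ± 0.27 between 4 and 5 hpf (adjusted p = 0.000949) and by 0.96 ± 0.27 between 4 and 6 hpf (adjusted p = 0.00277). ACVR1B did not pass in controls, at -0.25 ± 0.16 between 4 and 6 hpf (adjusted p = 0.178), whereas in 10 pg explants it rose by 0.66 ± 0.18 over the same interval (adjusted p = 0.00255), a call that was lost without 10 pg replicate 2 of 4 hpf (0.51, adjusted p = 0.071).

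For foxh1 the controls held 315, 274 and 324 CPM at 4 hpf, 313, 677 and 304 CPM at 5 hpf, and 584, 575 and 585 CPM at 6 hpf. Replicate 2 of 5 hpf was the highest of the 9 control libraries and the other libraries of 5 hpf were at the level of 4 hpf. The rise of 0.50 ± 0.21 between 4 and 5 hpf (adjusted p = 0.0423) rested on that library, and without it the change was 0.02 (adjusted p = 0.942). It also lost its call without control replicate 1, 2 or 3 of 4 hpf (0.43 to 0.55, adjusted p = 0.0537 to 0.137). Between 4 and 6 hpf foxh1 rose by 0.93 ± 0.21 (adjusted p = 0.000266), in no library of 6 hpf overlapping those of 4 hpf. Without control replicate 2 of 5 hpf the change between 5 and 6 hpf passed as well (0.91, adjusted p = 0.0011).

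These age directions depend on the scaling for the genes that rose. With TMM the median change over all genes between 4 and 6 hpf in controls was -0.05, although 63.3% of all genes were called. With library totals alone that median moved by -0.54. On that scale tdgf1 (0.42, adjusted p = 0.201) and foxh1 (0.40, adjusted p = 0.055) did not pass between 4 and 6 hpf, foxh1 turned to -0.0072 between 4 and 5 hpf, and ACVR1B fell by 0.79 between 4 and 6 hpf (adjusted p = 5.41e-05). In 10 pg explants between 4 and 6 hpf, ACVR1B (0.10, adjusted p = 0.634), tdgf1 (0.29, adjusted p = 0.458) and foxh1 (0.38, adjusted p = 0.112) did not pass with library totals. SMAD2 and ACVR2A fell on either scale.

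CHX separated the members most strongly. At 5 and 6 hpf SMAD2 and ACVR2A were higher in CHX explants than in explants of the same age without CHX, SMAD2 by 4.38 to 5.9 times against 10 pg and control explants, while tdgf1 and ACVR1B were below their level in 10 pg explants. Against 10 pg, 2 members rose and 2 fell both at 5 hpf (49.2% of all genes called) and at 6 hpf (56.2%), and 0 passed at 4 hpf (0.555%), where tdgf1 and SMAD2 were below 0.05 without adjustment. Against control, 4 were called at 5 hpf (48.8%), 3 at 6 hpf (54.8%) and 0 at 4 hpf (0.251%), where no member was below 0.05 without adjustment. DESeq2 called 0 members in either comparison at 4 hpf. The members' shares lie beside backgrounds of about every other gene at 5 and 6 hpf, so the counts do not set them apart. The ndr2 counts include the injected mRNA and any ndr2 transcript of the explants themselves. They averaged 192 ± 154 CPM in CHX explants and 128 ± 20 CPM with 10 pg at 4 hpf (n = 2 each). At 5 hpf they lay at 21.6 to 98.8 CPM in CHX explants and 11.6 to 20.2 CPM with 10 pg. At 6 hpf they averaged 21.3 ± 5.8 CPM in CHX explants and 21.5 ± 6.0 CPM with 10 pg (n = 3 each). The part of the ndr2 level in the CHX differences was not tested.

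SMAD2 at 5 hpf had 293, 149 and 279.7 CPM in CHX explants, against 42.2, 44.6 and 45.03 CPM with 10 pg and 41.0, 38.5 and 42.7 CPM in controls. At 6 hpf it had 153, 219 and 159 CPM in CHX explants, against 36.5, 45.9 and 38.9 CPM with 10 pg and 35.8, 46.3 and 34.7 CPM in controls. Every CHX library lay above every library without CHX of its age, with no overlap. SMAD2 rose by 2.45 ± 0.24 against 10 pg at 5 hpf (5.47-fold, adjusted p = 1.04e-09) and by 2.13 ± 0.24 at 6 hpf (4.38-fold, adjusted p = 3.7e-09). Against control the rises were 2.56 ± 0.24 and 2.19 ± 0.24 (adjusted p = 3.81e-10 and 2.6e-09).

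At 4 hpf SMAD2 had 217 and 145 CPM in CHX explants, against 141 and 73.1 CPM with 10 pg and 141, 189.8 and 109 CPM in controls, and neither comparison passed (0.76 ± 0.28 against 10 pg, adjusted p = 0.252, and 0.31 ± 0.25 against control, adjusted p = 0.939). Without 10 pg replicate 1 the value against 10 pg was 1.31 (adjusted p = 0.0375), and without CHX replicate 1 the value against control was -0.02. From 4 to 6 hpf SMAD2 changed by -0.03 ± 0.25 in CHX explants (95% interval -0.55 to 0.48), against falls of 1.41 ± 0.25 in 10 pg explants and 1.91 ± 0.23 in controls. The age change in CHX explants differed from that in controls by 1.88 ± 0.35 (adjusted p = 8.14e-05) and from that in 10 pg explants by 1.37 ± 0.36 (adjusted p = 0.00428). In these tests of the difference 1 of the 5 genes was called, against a background of 33.2% with controls and 27.0% with 10 pg. The difference from 10 pg explants rested on the small groups of 4 hpf: it was 0.83 (adjusted p = 0.12) without 10 pg replicate 1 and 1.12 (adjusted p = 0.0535) without CHX replicate 2.

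ACVR2A at 5 hpf had 64.7, 39.2 and 66.7 CPM in CHX explants, against 24.7, 26.6 and 17.7 CPM with 10 pg and 17.7, 16.6 and 25.9 CPM in controls. At 6 hpf it had 33.8, 47.4 and 42.7 CPM in CHX explants, against 22.7, 29.4 and 24.5 CPM with 10 pg and 18.1, 21.4 and 19.6 CPM in controls. The CHX libraries lay above all others of their age. ACVR2A rose by 1.31 ± 0.23 against 10 pg at 5 hpf (adjusted p = 1.52e-05) and by 0.70 ± 0.23 at 6 hpf (adjusted p = 0.00933), the second of which gave 0.59 (adjusted p = 0.0503) without CHX replicate 2. Unlike SMAD2 it also fell with age under CHX, by 0.84 ± 0.25 between 4 and 6 hpf (adjusted p = 0.0111), though not without CHX replicate 1 of 4 hpf (-0.70, adjusted p = 0.104) or CHX replicate 1 of 6 hpf (-0.71, adjusted p = 0.062). Its age change differed from that in controls by 0.85 ± 0.34 (adjusted p = 0.0502), which just missed the threshold. It passed without control replicate 3 of 4 hpf (1.02, adjusted p = 0.0229) or CHX replicate 1 of 6 hpf (0.98, adjusted p = 0.0324).

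The co-receptor gene tdgf1 at 5 hpf had 81.0, 173 and 89.5 CPM in CHX explants, against 466, 439 and 416 CPM with 10 pg and 326, 174 and 306 CPM in controls. At 6 hpf it had 248, 139 and 172 CPM in CHX explants, against 517, 483 and 346 CPM with 10 pg and 319, 229 and 180.2 CPM in controls. The CHX libraries lay below all 10 pg libraries at both ages and overlapped the controls at 6 hpf. It fell by 1.94 ± 0.28 against 10 pg at 5 hpf (adjusted p = 7.66e-07) and by 1.27 ± 0.27 at 6 hpf (adjusted p = 0.000192), and by 1.23 ± 0.27 against control at 5 hpf (adjusted p = 0.000332). Against control at 6 hpf the change was -0.38 ± 0.27 (adjusted p = 0.232). With library totals it turned to 0.12 (adjusted p = 0.74), and the fall against 10 pg at 6 hpf shrank to -0.72 (adjusted p = 0.0335).

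ACVR1B in CHX explants stayed near one level at all ages, with 219 and 183 CPM at 4 hpf, 219.8, 186 and 219 CPM at 5 hpf, and 233, 183 and 212 CPM at 6 hpf. At 5 hpf these lay below the 10 pg libraries (339, 372 and 304 CPM) and above the controls (155, 159.7 and 166 CPM), and at 6 hpf below the 10 pg libraries (402, 480.1 and 339 CPM) and just above the controls (155, 159 and 182 CPM). ACVR1B fell against 10 pg by 0.70 ± 0.16 at 5 hpf (adjusted p = 0.000493) and by 0.96 ± 0.16 at 6 hpf (adjusted p = 6.51e-06). With library totals the falls shrank to -0.38 (adjusted p = 0.044) and -0.40 (adjusted p = 0.0294). The excess over control was 0.38 ± 0.16 at 5 hpf (adjusted p = 0.0507) and 0.34 ± 0.16 at 6 hpf (adjusted p = 0.0732), on the far side of the threshold. It passed without CHX replicate 2 of the same age (0.45, adjusted p = 0.0338 at 5 hpf, and 0.43, adjusted p = 0.0454 at 6 hpf). With library totals alone, which moved the median of all genes by 0.44 and 0.52 in these comparisons, the excess was 0.82 and 0.85 (adjusted p = 5.44e-05 and 2.42e-05). The age change of ACVR1B from 4 to 6 hpf differed between CHX and 10 pg explants by -0.61 ± 0.25 (adjusted p = 0.074). This difference passed without 10 pg replicate 3 of 6 hpf (-0.72, adjusted p = 0.0404). It also passed with DESeq2 and with RLE size factors (-0.70 each, adjusted p = 0.0309 and 0.0373) and under each use of the identical column (adjusted p = 0.0151 to 0.0489). With library totals it shrank to -0.06 (adjusted p = 0.9).

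For foxh1 the levels in CHX explants were 278, 330.0 and 256 CPM at 5 hpf, against 329.6, 396 and 337 CPM with 10 pg and 313, 677 and 304 CPM in controls. At 6 hpf they were 527, 328 and 315 CPM in CHX explants, against 527, 520.4 and 558 CPM with 10 pg and 584, 575 and 585 CPM in controls. The CHX and control ranges overlapped at 5 hpf and not at 6 hpf, where CHX replicate 1 lay with the 10 pg libraries and the other CHX libraries well below them. Against control foxh1 fell by 0.58 ± 0.21 at both ages (adjusted p = 0.0214 at 5 hpf and 0.02 at 6 hpf). The 5 hpf value dropped to -0.10 (adjusted p = 0.699) without control replicate 2, and lost its call without CHX replicate 1 (-0.56, adjusted p = 0.0624) or 3 (-0.50, adjusted p = 0.089) and in a fit of the 5 hpf libraries alone (-0.56, adjusted p = 0.0876). The 6 hpf call was lost without CHX replicate 2 (-0.47, adjusted p = 0.102) or 3 (-0.44, adjusted p = 0.114). With library totals alone the values were -0.06 and -0.07 (adjusted p = 0.801 and 0.763). Against 10 pg at 6 hpf the change was -0.46 ± 0.21 (adjusted p = 0.0622), and without CHX replicate 1 it was -0.73 (adjusted p = 0.00635). It also passed with DESeq2 and with RLE size factors (-0.55 each, adjusted p = 0.0326 and 0.0293) and in a fit of the 6 hpf libraries alone (-0.44, adjusted p = 0.0142), while with library totals it turned to 0.10.

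**Figure D3:**
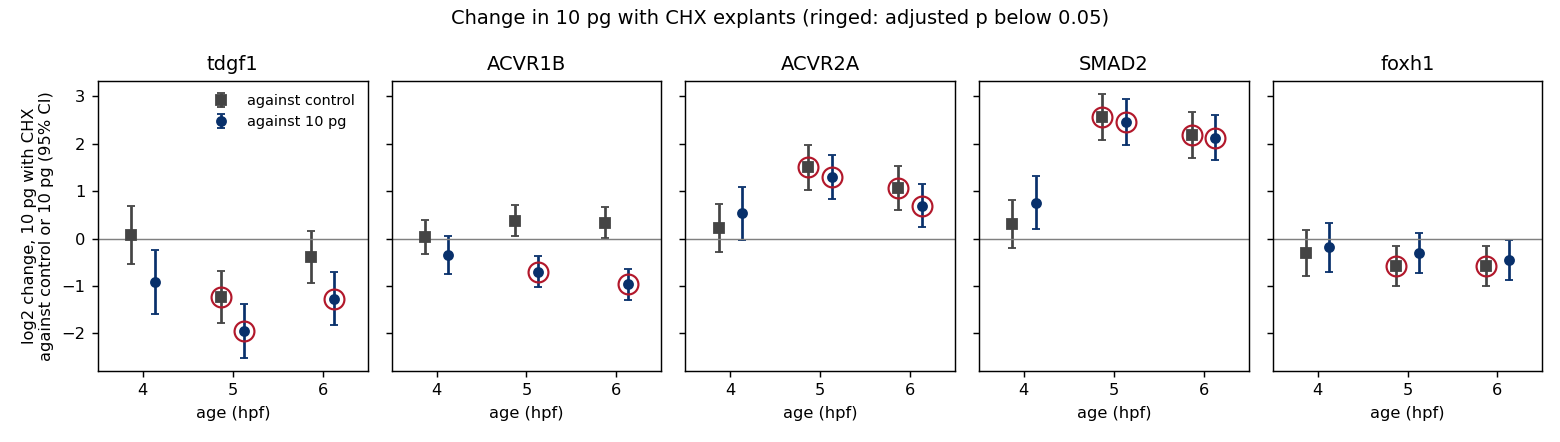
Log2 change of each gene in 10 pg with CHX explants against control (squares) and against 10 pg (circles) by age in hpf, with 95% intervals and rings where adjusted p was below 0.05. SMAD2 lies at 2.13 to 2.56 at 5 and 6 hpf and ACVR2A at 0.70 to 1.50, while tdgf1 lies at -1.94 and -1.27 against 10 pg.

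Surface cell markers moved with CHX. The summed level of 8 enveloping layer genes was 15.5 to 138 CPM in CHX explants at 5 hpf and 66.4 to 215 CPM at 6 hpf, against 5848 to 11333 CPM and 18580 to 26206 CPM with 10 pg and 4398 to 23341 CPM and 17677 to 22881 CPM in controls. All 8 genes were lower with CHX in these comparisons, in which 24.2% to 27.2% of all genes were lower. Of 9 deep cell genes, 2 were higher and 4 lower against 10 pg at 6 hpf (56.2% of all genes called), and of 6 germ cell genes 4 were higher. The 5 yolk syncytial genes summed to at most 11.5 CPM in any library. The part of cell makeup and of the lag in development in the changes of the 5 genes under CHX was not tested. With 10 pg at 6 hpf, where 0.474% of all genes were called, 0 of the 8 enveloping layer genes and 0 of the 9 deep cell genes were called. Their median log2 changes were 0.215 and -0.22. The part of cell makeup in the rise of ACVR1B in that comparison was not tested.

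Over all 15 groups the span between the lowest and the highest group mean was 7.19-fold for SMAD2, 4.22-fold for ACVR2A, 4.12-fold for tdgf1, 2.92-fold for foxh1 and 2.79-fold for ACVR1B. The mean of SMAD2 ran from 33.4 ± 6.6 CPM (6 pg, 5 hpf) to 240.4 ± 79.6 CPM (CHX, 5 hpf). Its 8 lowest groups were the groups of 5 and 6 hpf without CHX, with each range overlapping the next, and below the lowest of the other 7 groups, 2 pg at 4 hpf (99.5 ± 10.3 CPM), there was a gap. ACVR2A ran from 17.5 ± 0.8 CPM (2 pg, 5 hpf) to 73.7 ± 9.1 CPM (CHX, 4 hpf), with the CHX groups of all ages, control at 4 hpf and 10 pg at 4 hpf on top and a gap to the other 10 groups. tdgf1 ran from 114 ± 51 CPM (CHX, 5 hpf) to 471 ± 121 CPM (6 pg, 6 hpf). Its top 4 groups were 6 pg and 10 pg at 5 and 6 hpf, each overlapping the next. The next group, 2 pg at 5 hpf, lay below both 5 hpf groups and 6 pg at 6 hpf and overlapped 10 pg at 6 hpf, whose lowest library had 346 CPM. ACVR1B ran from 160.2 ± 5.8 CPM (control, 5 hpf) to 447 ± 87 CPM (6 pg, 6 hpf), and every group overlapped the next in that order. foxh1 ran from 238 ± 39 CPM (2 pg, 4 hpf) to 696 ± 19 CPM (2 pg, 6 hpf), and the 4 top groups were those of 6 hpf without CHX.

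Related receptors and Smads were called with 2 pg and 6 pg at 4 hpf, and 0 with 10 pg at 6 hpf, where few genes of any kind were called. Of 12 other genes tested that encode activin or TGF-beta receptors or the Smads of this branch, 0 were called with 10 pg at 6 hpf by edgeR's test (0.474% of all genes called). Without adjustment 0 of them were below 0.05, beside 576 of the 21075 genes tested. These counts are near the shares over all genes, so they do not set the relatives apart. At 4 hpf, 6 of the 12 rose and 1 fell with 2 pg (29.0% of all genes called), and 5 rose and 0 fell with 6 pg (15.7%). The second gene named ACVR1B was among them, at 1.55 ± 0.17 with 2 pg and 1.32 ± 0.17 with 6 pg (adjusted p = 7.51e-08 and 3.88e-06), while the member ACVR1B did not pass at that age. The 2 pg libraries of 4 hpf, and in part the 6 pg libraries, stood apart in developmental progress. The part of that progress in these changes of the relatives was not tested. This second gene, ENSDARG00000052142, had 93.3, 98.7 and 75.3 CPM with 10 pg, against 89.1, 97.9 and 105 CPM in controls at 6 hpf, and the groups overlapped. Its change was -0.13 ± 0.16, where the member ACVR1B rose by 1.30 ± 0.16. The difference between these genes was not tested, and reads that fit both could be split between them by the counting, which is not described in the sources used here. With age in controls the second ACVR1B gene rose by 0.92 ± 0.16 from 4 to 6 hpf (adjusted p = 1.06e-05), an interval in which the member ACVR1B did not pass. The ACVR2B genes, type II receptors, rose as well, by 1.25 ± 0.26 (ENSDARG00000044422) and 1.60 ± 0.23 (ENSDARG00000103108), while ACVR2A fell.

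With CHX against 10 pg at 6 hpf, 3 of the 12 relatives rose and 2 fell, beside 56.2% of all genes called. Of the 4 Smad genes among these relatives, 1 rose and 0 fell, with a median log2 change of -0.0654. Smad3 is the other Smad that activin-type receptors phosphorylate, and 2 genes tested carry its symbol. The SMAD3 gene ENSDARG00000036096 was not called. The SMAD3 gene ENSDARG00000010207 had 6.32, 5.82 and 3.41 CPM with CHX, with no overlap with the other groups. Those had 1.89, 1.44 and 1.08 CPM with 10 pg and 0.816, 1.22 and 1.22 CPM in controls. This SMAD3 gene rose by 1.81 ± 0.42 against 10 pg (adjusted p = 0.000455), next to 2.13 ± 0.24 for SMAD2. It had fallen by 2.59 ± 0.43 with age in controls. TGFBR2 (ENSDARG00000034541), a type II receptor for TGF-beta ligands, rose by 1.79 ± 0.38 (adjusted p = 0.00014). The second ACVR1B gene rose by 0.42 ± 0.16 (adjusted p = 0.0292), opposite in sign to the fall of the member ACVR1B. TGFBR1 (ENSDARG00000042259), a type I receptor for TGF-beta, fell by 2.47 ± 0.54 (adjusted p = 0.000235), and ACVR2B (ENSDARG00000103108) fell by 0.66 ± 0.22 (adjusted p = 0.0124). The 2 SMAD4 genes, which encode the shared Smad partner, did not pass (-0.14 ± 0.31 and 0.01 ± 0.25).

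**Figure D4:**
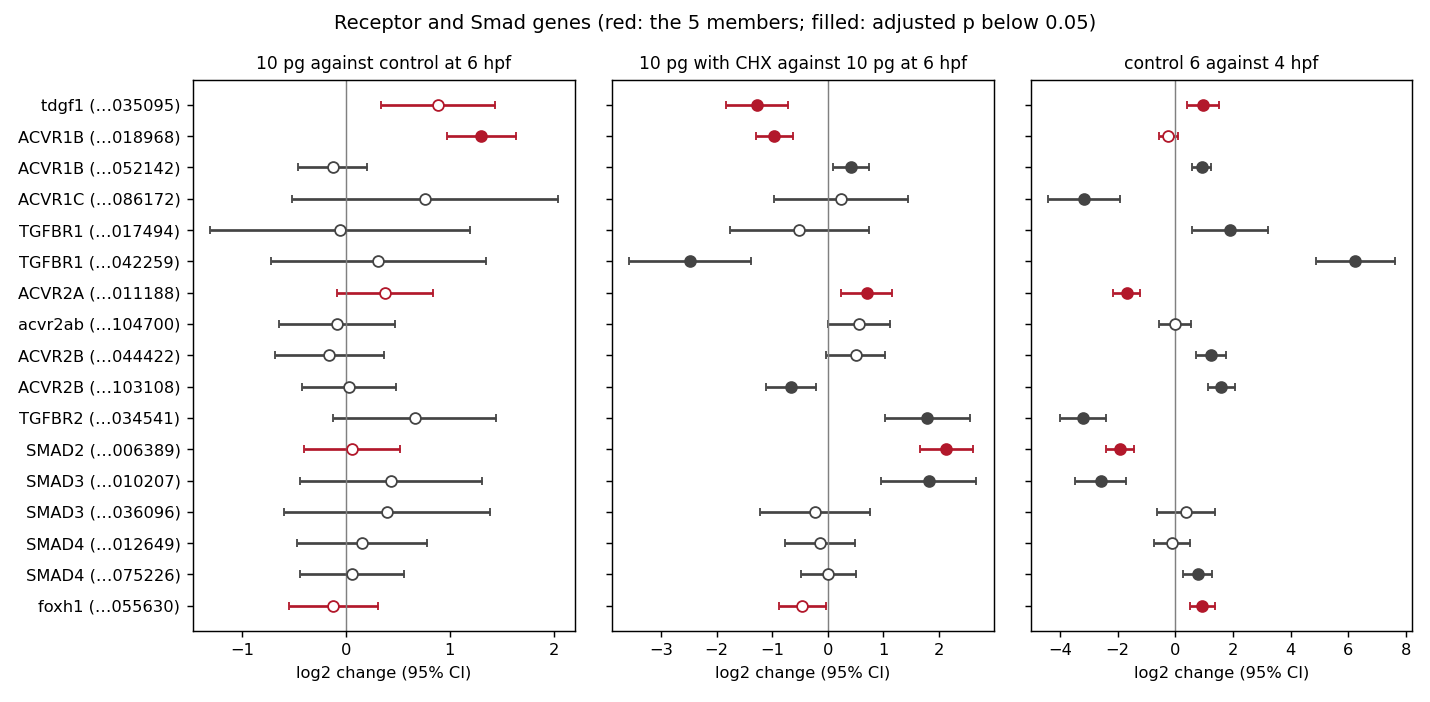
Log2 change with 95% intervals of the 5 genes (red) and 12 related receptor and Smad genes (grey), each with the last digits of its gene ID, in 3 comparisons, with filled points where adjusted p was below 0.05. In the left panel, a comparison with 0.474% of all genes called, the ACVR1B gene described here is the only filled point, at 1.30. In the other panels genes of the same family lie on both sides of 0.

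Of the 62 other genes tested from a list of the Nodal pathway and its regulators, 6 rose and 0 fell with 10 pg at 6 hpf (0.474% of all genes called). The median log2 change was 0.12 over the list and -0.0046 over all genes. The genes that rose were the ligand genes ndr1 (4.33), ndr2 (5.55) and spaw (4.23), the Nodal antagonist genes lft1 (6.91) and lft2 (7.02), and the Smad partner gene mixl1 (6.09). The ndr2 counts include the injected mRNA. At 4 and 5 hpf with 10 pg, 5 rose and 0 fell (0.147% and 0.223% of all genes called). The change of ACVR1B at 6 hpf, 1.30, was smaller than any of the 6.

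With CHX against 10 pg at 6 hpf, 17 of the 62 rose and 19 fell, near the shares over all genes (29% higher and 27.2% lower), with a median of -0.35 over the list and 0.12 over all genes. The antagonist genes lft1 (-2.10) and lft2 (-2.96) were among those that fell. Of 5 other Smad partner genes, 2 rose and 2 fell, with a median of -0.804. Among those that rose, EOMES (ENSDARG00000006640), a maternal T-box factor in zebrafish, changed by 4.07 ± 0.41. It had 58.9, 101 and 78.0 CPM in CHX explants, against 4.84, 5.19 and 4.11 CPM with 10 pg. Of 5 ligand genes, 1 rose and 0 fell, with a median of -0.0147. gdf3, also called Vg1, the maternal ligand that pairs with Nodal, had 302, 255 and 218 CPM in CHX explants, against 93.3, 95.2 and 51.4 CPM with 10 pg, and rose by 1.69 ± 0.24 (adjusted p = 3.22e-07). EOMES and gdf3 also fell with age in controls from 4 to 6 hpf (-4.32 ± 0.41 and -2.86 ± 0.25), as SMAD2 and ACVR2A did. Their age change under CHX was less of a fall than in controls by 3.60 ± 0.57 (adjusted p = 1.21e-05) and 2.16 ± 0.36 (adjusted p = 1.96e-05). In that difference 2 of the 5 Smad partner genes were called higher and 2 lower, and 1 of the 5 ligand genes higher and 1 lower. The share of all genes called there was 33.2%.

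Across the 15 group means of log2 CPM, SMAD2 ran with ACVR2A (Pearson r = 0.87) and against tdgf1 (r = -0.88), and tdgf1 with ACVR1B (r = 0.69). These values describe 15 points that share libraries, ages and the CHX treatment. By the same measure over 15265 genes with at least 1 CPM, the genes most like ACVR1B were pcdh8 (r = 0.92), sebox (0.92), admp (0.91), dkk1b (0.90) and PFKFB3 (0.89). Those most like tdgf1 were FSCN1 (0.94), cyp2aa9 (0.94), MDK (0.94), tbx16 (0.93) and cldna (0.93). SMAD2 was matched by TRIM37, GRIPAP1, BMAL1, TADA2B and PEX13 (all 0.99), ACVR2A by TOP3A (0.98) and CENPP (0.97) among named genes, and foxh1 by GREB1L (0.98), znf800b, CDC23, KCMF1 and cep43 (all 0.97). Without the CHX groups, 0 of the 5 genes nearest to ACVR1B and 0 of those nearest to SMAD2 were still among the nearest 5. For tdgf1, ACVR2A and foxh1 the number that stayed was 2, 3 and 1. The genes named for ACVR1B still had r of 0.89 to 0.93 without the CHX groups, and those named for SMAD2 0.98 to 0.99, so other genes ranked above them.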

How the data were processed

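The authors deposited 1 table of raw counts per Ensembl gene. STAR, featureCounts, DESeq2 and the build GRCz11 are named in the submitters' processing notes, without versions. The annotation's release or strand handling is not given in the sources used here. Groups follow the sample titles, whose doses differ from figures in the descriptions. Replicate 3 of 10 pg and of 10 pg with CHX at 4 hpf held identical counts and was left out.

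The model was edgeR 4.0.16 under R 4.3.3 with TMM scaling, robust quasi-likelihood and 1 coefficient per group, which left 28 residual degrees of freedom. Genes were kept by filterByExpr (minimum count 10, minimum total 15). p-values were adjusted over 21075 genes in each of 26 comparisons. Alternatives were DESeq2 1.42.0, RLE scaling, library totals, no filter, a replicate block, fits within an age, other uses of the identical columns, leaving out 1 library and, chosen after the data were seen, leaving out 2 pg and 6 pg at 4 hpf. The fit was also run on simulated counts in which changes were planted in the 10 pg group of 6 hpf alone. That run does not bear on the age and CHX results.

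The members and gene lists were chosen with earlier results of these data known. Named genes are the members, pathway genes called against control or in CHX against 10 pg (not each is printed), and the 5 nearest to each member by correlation (log2 CPM, prior count 2). Whether replicate numbers pair libraries was checked by correlating deviations from group means over 11068 genes, since the labels do not say. With 3 pairs, every pair was over 0.1 in 5 condition pairs of 5 and 6 hpf (control with CHX and 10 pg with CHX at both ages, control with 10 pg at 6 hpf). Levels are not compared between genes, for want of transcript lengths. Promoter sequences were not analysed here.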

Additional observations from a re-analysis of the deposited data

Results flagged for a closer look

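The age change of SMAD2 differed between conditions in direct tests of the difference. From 4 to 6 hpf the log2 change was -0.03 in CHX explants, against -1.41 in 10 pg explants and -1.91 in controls. The difference was 1.88 against controls (adjusted p = 8.14e-05) and 1.37 against 10 pg (adjusted p = 0.00428) by edgeR's quasi-likelihood test. These comparisons share the CHX libraries, which number 2 at 4 hpf and 3 at 6 hpf. In them 33.2% of all genes were called against controls and 27.0% against 10 pg, so a call there is common. The difference from 10 pg shrank to 0.83 without 10 pg replicate 1 of 4 hpf and to 1.12 without CHX replicate 2 of 4 hpf. The CHX libraries of 6 hpf lagged the controls over the 5751 genes that fell by more than 1 log2 unit with age in controls. The median log2 level of these genes was -0.69 to -0.48 with CHX, against -2.12 to -2.07 in controls. The part of that lag in the SMAD2 difference was not tested.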

How the results depend on the processing

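The larger changes in the counts of members called are listed here and in the next paragraph. Smaller changes and exchanges of members at a like count are not all listed, nor are the shares of all genes called under each setting. With library totals, for example, tdgf1 lost its call for 2 pg at 4 hpf (0.61, adjusted p = 0.109), while SMAD2 and foxh1 gained theirs. With RLE scaling 1 passed for CHX between 4 and 6 hpf (2 as reported) and 2 for the age change of CHX against that of 10 pg (1 as reported). With library totals 1 passed for 6 pg at 4 hpf (2 as reported), 2 for 10 pg between 4 and 6 hpf (5 as reported) and 3 for the age change of CHX against that of controls (1 as reported), and foxh1 in controls between 4 and 5 hpf reversed to -0.0072. Fits within the ages compared gave 1 for 6 pg at 4 hpf, 0 for 6 pg at 5 hpf (1 as reported) and 2 for the age change against controls. All 45 columns gave 1 for 2 pg and for 6 pg at 4 hpf (2 as reported for each), 1 for CHX between 4 and 6 hpf and 2 for either age change. The identical column in 10 pg alone gave 1 for 2 pg and for 6 pg at 4 hpf and 2 for the age change against 10 pg, and in CHX alone 1 for CHX against 10 pg at 4 hpf (0 as reported), 1 for CHX between 4 and 6 hpf and 2 for either age change. DESeq2 gave 2 for the age change against 10 pg, and leaving out 2 pg and 6 pg of 4 hpf gave 2 for that against controls. The cause of these changes was not tested.

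Leaving out 1 library gave 1 to 3 for 2 pg and 1 to 2 for 6 pg at 4 hpf, 0 to 1 for 6 pg at 5 hpf, for 2 pg at 6 hpf, for CHX against 10 pg at 4 hpf and for controls between 5 and 6 hpf, 1 to 2 for the slope at 6 hpf, 3 to 5 for 10 pg and 0 to 2 for CHX between 4 and 6 hpf, 1 to 2 for the age change against controls and 0 to 2 for that against 10 pg. A replicate block within each age gave 1 member for CHX between 4 and 6 hpf, against 2 without the block. It also gained the SMAD2 call for 2 pg at 4 hpf (-0.55, adjusted p = 0.0429) and lost the foxh1 call in controls between 4 and 5 hpf (0.46, adjusted p = 0.0688). It changed no member's call in the 5 comparisons in which every pair of the same number was over 0.1. The block was shared by all 5 conditions of an age. These include 2 pg and 6 pg, whose numbers did not all pair with those of control. A fit of the paired conditions alone was not run, so the block is not a test of those pairs by themselves. ACVR1B with 10 pg and SMAD2 with CHX at 5 and 6 hpf kept direction and call in every setting run. With library totals the share of higher calls over all genes was 69.5% for CHX against control at 6 hpf (51.8% with TMM), 70% for CHX against 10 pg at 6 hpf (51.7%), 35% for controls (49.3%) and 33.5% for 10 pg (49.3%) between 4 and 6 hpf, and 38.2% for 2 pg at 4 hpf (51.6%). Groups of 2 limit the comparisons at 4 hpf, and the lowest count of a member in any library was 247.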

Other observations

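One column of counts stood both as replicate 3 of 10 pg and as replicate 3 of 10 pg with CHX at 4 hpf. It was left out of the fits of 43 libraries and used only under the alternative settings that name it. This column had 114 tdgf1, 253 ACVR1B, 83.5 ACVR2A, 261 SMAD2 and 419.8 foxh1 CPM, by its total of 20553891 counts. These values are scaled by the total and not by TMM, so they are not on the scale of the levels given for other libraries.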
